A study of Mus musculus with 12 samples.

Results

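Junctional and endothelial-type adhesion genes are the surface proteins, and 1 kinase downstream of them, through which cells of the vessel wall hold on to each other and to blood cells. The 10 genes described here are F11r, Esam, Jam3, Pecam1, Cdh5, Vcam1, Icam1, Icam2, Cd47 and Ptk2, out of 32285 genes in the table. They were chosen by name, after the counts of these same libraries had been analysed in all 4 groups, so the tests below describe the 10 genes and are not independent evidence about them. All 10 were found in the table. All libraries were made from cells sorted from lineage-depleted bone marrow (BM) of WT mice of the C57BL6/J strain, with no treatment in any group. The 4 groups were Ly6d- common lymphoid progenitors (CLPs) at 1 month of age (1MO) and at 3 months (3MO), and Flk2+ multipotent progenitors (MPPs) at the same ages, with 3 libraries in each. The study sorted each population from single mice and used 3 independent experiments, and it asked how lymphoid progenitors in BM change between 1MO and 3MO. In bulk RNA, fewer cells that express a gene and less RNA of it per cell cannot be told apart.

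At a tight or adherens junction, transmembrane proteins of neighbouring cells bind each other outside the cell and are anchored to the cytoskeleton inside. F11r (JAM-A), Esam and Jam3 (JAM-C) are immunoglobulin-type proteins of tight junctions, Cdh5 (VE-cadherin) is the cadherin of endothelial adherens junctions, and Pecam1 (CD31) lines the contacts between endothelial cells. Vcam1, Icam1 and Icam2 are ligands for leukocyte integrins, Cd47 is a widely expressed signal that binds SIRP-alpha on phagocytes, and Ptk2 (focal adhesion kinase) relays integrin binding into the cell. Several of these proteins are also found on hematopoietic stem and progenitor cells, where Esam and Pecam1 serve as surface markers and the Vcam1 ligand, integrin alpha-4 beta-1, takes part in retention in BM.

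The libraries held 8889083 to 20677785 estimated counts each (median 13208993) and 12379 to 15512 genes with a count. The labels were checked against a list of CLP markers, which summed to 4385 to 5409 CPM (counts scaled to a common library size) in CLP libraries and 1734 to 2296 in MPP libraries, and against a list of MPP markers, which summed to 3715 to 4124 CPM in MPP libraries and 2472 to 2659 in CLP libraries. CPM values throughout were normalized for library composition by the TMM method. Markers of other cells were present: 11 markers of bone stroma, such as the collagen gene Col1a1, summed to 310.9 to 703.3 CPM in 1MO CLPs. They summed to 95.4 to 127.7 CPM in 3MO CLPs, and the highest sum was in 1MO CLP replicate 1. In 3MO CLPs Col1a1, Col1a2, Sparc and Cxcl12 had mean values of 0.639, 0.554, 3.16 and 0.833 CPM. Most of the sum in 3MO CLPs therefore came from other genes of the list. The stroma values are set beside the members below, and the part of such RNA in the members was not tested.

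The promoter sequence of F11r is shown because F11r had the smallest p of the 10 genes between CLPs and MPPs at 3MO, and that of Icam1 because it was among the members that differed least. Cd47, the remaining member in the promoter table, is shown because it alone of the 3 held a searched motif. The windows run from 250 to 31 bases before the RefSeq transcription start on GRCm38.p6, 5′ to 3′, F11r at chr1:171437311-171437530, Icam1 at chr9:21015690-21015909 and Cd47 at chr16:49855404-49855623, each on the plus strand. Capitals mark the motif CCGGAAG.
F11r: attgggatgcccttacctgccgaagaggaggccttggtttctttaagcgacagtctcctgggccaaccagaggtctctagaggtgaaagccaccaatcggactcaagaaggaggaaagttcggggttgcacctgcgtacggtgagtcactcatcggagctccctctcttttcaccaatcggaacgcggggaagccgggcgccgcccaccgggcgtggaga
Icam1: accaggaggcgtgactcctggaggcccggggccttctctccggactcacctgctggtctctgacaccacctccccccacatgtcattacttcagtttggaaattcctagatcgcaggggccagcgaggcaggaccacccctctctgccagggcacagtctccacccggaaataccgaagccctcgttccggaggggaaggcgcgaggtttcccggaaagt
Cd47: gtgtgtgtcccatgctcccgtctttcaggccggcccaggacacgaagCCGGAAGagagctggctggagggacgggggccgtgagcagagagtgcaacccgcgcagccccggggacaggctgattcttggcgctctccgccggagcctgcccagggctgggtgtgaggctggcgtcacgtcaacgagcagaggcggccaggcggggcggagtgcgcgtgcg
The windows were 59.1% G and C for F11r, 62.3% for Icam1 and 70.9% for Cd47, against a median of 51.8% over the 32851 promoters of the table. Both strands were searched. The ETS-type motif CCGGAAG, which is in 5.0% of all windows of this length, was in the Cd47 window, 203 bases before the start, and not in those of F11r and Icam1. A second RefSeq start of Cd47 gives an overlapping window that holds the same match, 210 bases before that start. A motif bound by GATA factors, AGATAA, was in none of the windows and in 9.04% of all. The TATA box letters TATAAA were also in none, and in 9.95% of all. A match is not evidence of binding, and no match says only that these letters are not in these windows.

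The 10 genes spanned a wide range of levels. Divided by the length of annotated exons, the mean over the 12 libraries was highest for Cd47, at 218.6 CPM per kb. Pecam1 followed at 34.3, Icam2 at 11.2 and Icam1 at 10.1 CPM per kb. F11r stood at 3.16, Ptk2 at 1.24 and Esam at 1.18 CPM per kb, and Vcam1, Jam3 and Cdh5 came last at 0.59, 0.301 and 0.118 CPM per kb. Cd47 and Pecam1 held their places in every library. The neighbours Icam2 and Icam1 overlapped and changed places between cell types, with 14.8 ± 2.32 against 9.41 ± 0.342 CPM per kb in 1MO CLPs and 9.20 ± 2.54 against 11.6 ± 0.613 in 1MO MPPs (SD, n = 3), and Ptk2 and Esam likewise overlapped over the 12 libraries. The lower part of the order differed between groups. F11r was below Ptk2 in 1MO CLPs (1.24 against 1.58 CPM per kb) and in 3MO CLPs (0.332 against 0.489). Esam was below Vcam1 in both CLP groups and had the lowest mean of all in 1MO CLPs, at 0.209 CPM per kb beside 0.297 for Jam3 and 0.322 for Cdh5. The Jam3 mean rests on 1MO CLP replicate 1, with 0.815 CPM per kb against 0.0772 and 0.0 in the others.

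Low counts limit 4 of the genes. No gene had fewer than 10 counts in every library, which was the limit for calling a gene near zero throughout. Cdh5, however, had fewer than 10 counts in 9 of the 12 libraries and 0 in 3, and Jam3 fewer than 10 in 7 and 0 in 4. Esam had fewer than 10 counts in 5 libraries, with 0 in 1, and F11r in 2. All 10 genes passed edgeR's filter on low counts, Cdh5 only through the 1MO CLPs, where its counts were 15, 19 and 28 against at most 7 in any other library, so that its difference between groups is in part a consequence of passing. Jam3 likewise passed only with the 1MO MPPs counted, the group where it was highest. Esam reached the filter's cutoff of 0.757 CPM, which 3 libraries had to reach, in 1 of 6 CLP and all 6 MPP libraries, so it passed only through the MPPs, though those of either age would have been enough.

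**Figure D1:**
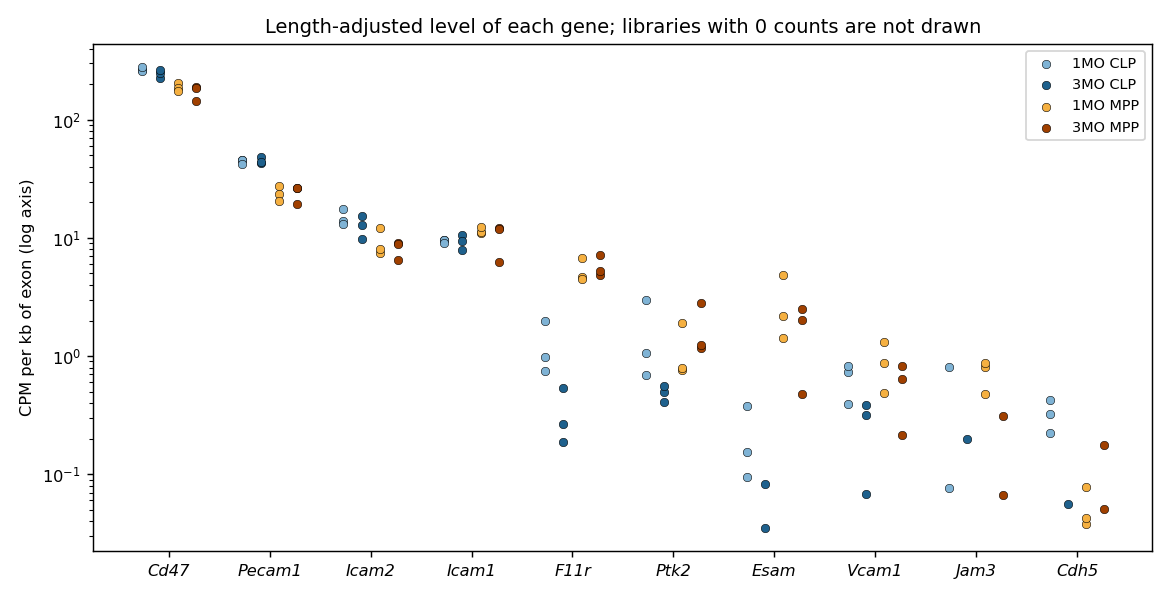
Level of each gene in each library as CPM per kb of exon on a log axis, with genes in order of their mean and colours for the 4 groups; libraries with 0 counts cannot be drawn. Cd47, with a mean of 218.6 CPM per kb, and Pecam1, with 34.3, lie above all the others in every library, and Cdh5 has the lowest mean over the 12 libraries, 0.118, but not the lowest in 1MO CLPs.

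The first question was how the genes differ between the 2 progenitor types. F11r and Esam were lower, and Pecam1 and Cd47 higher, in Ly6d- CLPs than in Flk2+ MPPs at both ages. At 1MO, 2 of the 10 genes were called higher in CLPs, where 2.57% of all 13367 tested genes were, and 2 were called lower, where 2.81% of all genes were. At 3MO the same 4 genes were called, 2 higher beside 2.73% of all genes and 2 lower beside 3.34%. Of the genes called lower, Esam passed the filter only through the MPPs, which leaves 1, F11r, at each age. With no filter beyond 1 count Esam was still called (adjusted p = 0.013 at 1MO and 0.00078 at 3MO from edgeR). A gene counts as called where edgeR's quasi-likelihood p, adjusted by the Benjamini-Hochberg method over all tested genes, fell under 0.05. The median log2 fold change of CLPs over MPPs was 0.08 for the 10 genes and -0.02 for all tested genes at 1MO, and -1.04 and -0.03 at 3MO. Over the 7 genes left without Esam, Jam3 and Cdh5, which each passed the filter through 1 cell type, it was 0.45 at 1MO and -0.13 at 3MO.

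F11r, the junctional adhesion molecule JAM-A (ENSMUSG00000038235, GRCm38 chromosome 1, 171437535 to 171464603, plus strand), had 5.31, 1.98 and 2.60 CPM in 1MO CLPs and 0.504, 1.44 and 0.712 in 3MO CLPs. In MPPs F11r had 12.4, 11.9 and 18 CPM at 1MO and 19.1, 13 and 14 at 3MO. Each of the 6 CLP libraries lay below each of the 6 MPP libraries. F11r was 4.31-fold lower in CLPs than in MPPs at 1MO (log2 fold change -2.11, SE 0.49, adjusted p = 0.017 from edgeR) and 16.7-fold lower at 3MO (log2 fold change -4.06, SE 0.54, adjusted p = 0.00026 from edgeR). The 3MO call held without any single library, whereas the 1MO call was lost without 1MO CLP replicate 2 (adjusted p = 0.096 from edgeR), without 1MO CLP replicate 3 (0.083) and without 1MO MPP replicate 3 (0.088).

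Esam, the endothelial cell-selective adhesion molecule (ENSMUSG00000001946, chromosome 9, 37528078 to 37538319, plus strand), had 0.27, 1.09 and 0.444 CPM in 1MO CLPs and 0.101, 0 and 0.237 in 3MO CLPs. In MPPs Esam had 4.10, 6.26 and 13.9 CPM at 1MO and 1.37, 5.76 and 7.23 at 3MO. CLPs and MPPs did not overlap, and the 3MO CLP libraries held 4 counts in all against 195 in 3MO MPPs. Esam was 13-fold lower in CLPs at 1MO (log2 fold change -3.70, SE 0.98, adjusted p = 0.036 from edgeR) and the fitted log2 fold change at 3MO was -5.39 (SE 1.13, adjusted p = 0.0092 from edgeR). The ratio of counts per depth at 3MO was 52.9-fold lower, with a 95% interval of 20.3 to 196.0 that covers counting error only. At 1MO the Esam call held in 4 of the 12 fits that each left out 1 library, namely those without 3MO CLP replicates 1, 2 or 3 or 3MO MPP replicate 1. It was lost without any of the other 8 libraries, at adjusted p-values from edgeR of 0.052 without 1MO MPP replicate 1 to 0.22 without 1MO MPP replicate 3. Over these fits the log2 fold change ran from -4.45 (without 1MO CLP replicate 2) to -3.06 (without 1MO MPP replicate 3) at 1MO and from -6.64 (without 3MO CLP replicate 3) to -4.72 (without 3MO CLP replicate 2) at 3MO. The 3MO call held in all 12, but not in a fit of only the libraries compared (adjusted p = 0.07 from edgeR).

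Pecam1, the platelet and endothelial adhesion molecule CD31 (ENSMUSG00000020717, chromosome 11, 106654217 to 106750628, minus strand), had 285.8, 282.8 and 263.1 CPM in 1MO CLPs and 298.8, 267.6 and 272.6 in 3MO CLPs. In MPPs Pecam1 had 172.1, 144.9 and 127.0 CPM at 1MO and 163.4, 164.7 and 121.1 at 3MO. All CLP libraries were above all MPP libraries. Pecam1 was 1.87-fold higher in CLPs at 1MO (log2 fold change 0.91, SE 0.16, adjusted p = 0.0029 from edgeR) and again 1.87-fold at 3MO (log2 fold change 0.90, SE 0.16, adjusted p = 0.0034 from edgeR). Both calls held without any single library.

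Cd47, the signal that binds SIRP-alpha (ENSMUSG00000055447, chromosome 16, 49800533 to 49915010, plus strand), had 1653.9, 1630.6 and 1751.7 CPM in 1MO CLPs and 1419.0, 1553.6 and 1659.1 in 3MO CLPs. In MPPs Cd47 had 1289.2, 1156.1 and 1108.0 CPM at 1MO and 903.8, 1178.8 and 1161.5 at 3MO. CLPs lay above MPPs without overlap. Cd47 was 1.42-fold higher in CLPs at 1MO (log2 fold change 0.50, SE 0.14, adjusted p = 0.049 from edgeR) and 1.43-fold at 3MO (log2 fold change 0.51, SE 0.14, adjusted p = 0.041 from edgeR). Both calls lie at the threshold. At 1MO the Cd47 call held only without 3MO MPP replicate 1 (adjusted p = 0.02 from edgeR) or 3MO MPP replicate 3 (0.049), and without any of the other libraries its adjusted p ran from 0.05 to 0.18. At 3MO it held only without 1MO CLP replicate 1 (0.045) or 1MO MPP replicate 3 (0.043), and otherwise ran from 0.056 to 0.15. The Cd47 calls were also lost with no filter on low counts (adjusted p = 0.066 and 0.071 from edgeR), and the 3MO call with only the libraries compared (0.13).

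**Figure D2:**
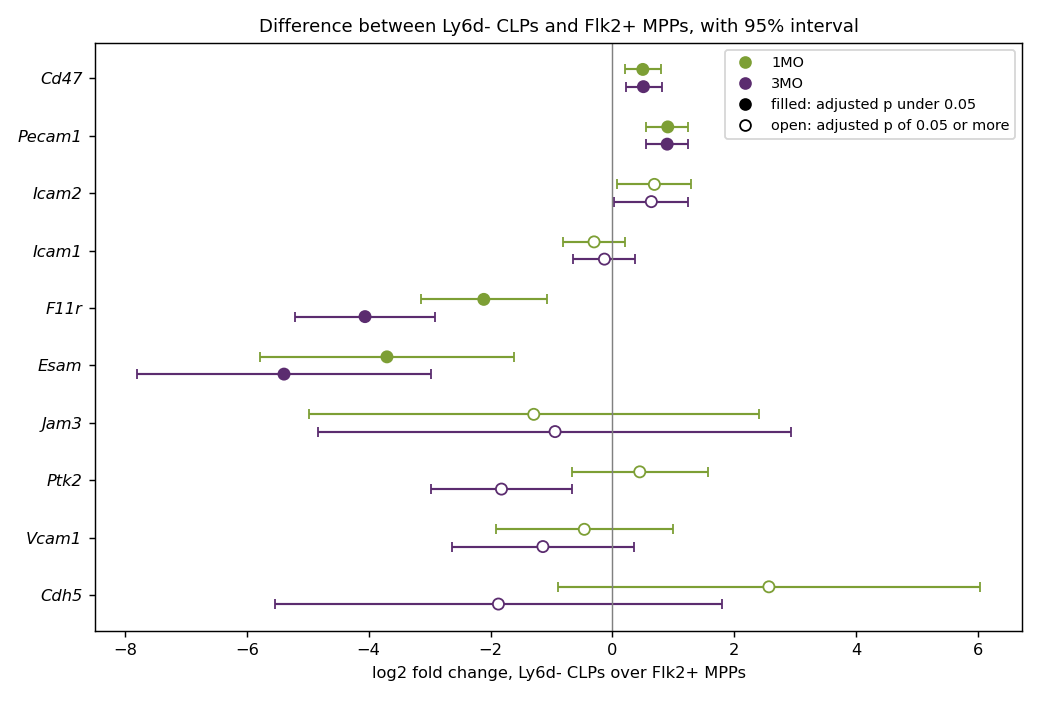
Log2 fold change of Ly6d- CLPs over Flk2+ MPPs at 1MO and 3MO with 95% intervals from edgeR, filled where the adjusted p is under 0.05. F11r (-2.11 and -4.06) and Esam (-3.70 and -5.39) lie to the left at both ages, Pecam1 (0.91 and 0.90) and Cd47 (0.50 and 0.51) to the right, and the intervals of Cdh5 and Jam3 are the widest.

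The integrin ligands were not called between cell types. Icam2 (ENSMUSG00000001029, chromosome 11, 106377656 to 106388075, minus strand), a ligand of leukocyte integrins on resting endothelium, had 26.7, 33.2 and 24.7 CPM in 1MO CLPs, 28.9, 18.6 and 24.6 in 3MO CLPs, 14.2, 15.3 and 23.1 in 1MO MPPs and 17.1, 12.3 and 16.9 in 3MO MPPs. CLPs were above MPPs without overlap at each age, yet the log2 fold changes of 0.69 (95% interval 0.08 to 1.29) and 0.64 (0.03 to 1.25) had adjusted p-values of 0.23 and 0.24 from edgeR. Icam1 (ENSMUSG00000037405, chromosome 9, 21015985 to 21028817, plus strand), an integrin ligand raised by inflammatory signals, had 39.3 to 42.1 CPM in 1MO CLPs, 34.3 to 45.6 in 3MO CLPs, 48.5 to 53.4 in 1MO MPPs and 27.4 to 52.9 in 3MO MPPs. The log2 fold change of Icam1 in CLPs over MPPs was -0.30 (95% interval -0.81 to 0.21) at 1MO and -0.13 (-0.64 to 0.38) at 3MO. Vcam1 (ENSMUSG00000027962, chromosome 3, 116109949 to 116129688, minus strand), the ligand of integrin alpha-4 beta-1, overlapped between cell types at both ages, with log2 fold changes of -0.46 (95% interval -1.91 to 0.99) and -1.14 (-2.63 to 0.35).

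Ptk2, the focal adhesion kinase (ENSMUSG00000022607, chromosome 15, 73205102 to 73423280, minus strand), had no stable direction at 1MO. Its log2 fold change of CLPs over MPPs was 0.45 (95% interval -0.67 to 1.57) and turned to -0.40 without 1MO CLP replicate 1. At 3MO all CLP libraries were below all MPP libraries, at a log2 fold change of -1.82 (SE 0.55, adjusted p = 0.063 from edgeR). Under DESeq2 the 3MO difference of Ptk2 passed, at an adjusted p of 0.014, so that DESeq2 called 5 of the 10 genes at 3MO beside 10% of its 14237 genes, and 4 at 1MO beside 8.85% of its 13896 genes. Without 1MO CLP replicate 1 or 2 the edgeR adjusted p of Ptk2 at 3MO was 0.026 or 0.047.

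Groups of 3 that do not overlap are common in this comparison. At 1MO, 3 genes (Pecam1, Icam2 and Cd47) were higher in every CLP than in every MPP library, beside 11.1% of all tested genes and leaving out Cdh5, which passed the filter through the 1MO CLPs, and 2 (F11r and Icam1) were lower in every one, beside 13.8%. At 3MO, 3 genes (Pecam1, Icam2 and Cd47) were higher without overlap, beside 10.1% of all genes, and 2 (F11r and Ptk2) were lower, beside 11.7%. Esam was lower without overlap at both ages but is left out of these counts because it passed the filter through the MPPs. An exact permutation test of 3 against 3 libraries cannot give a two-sided p below 0.1.

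**Figure D3:**
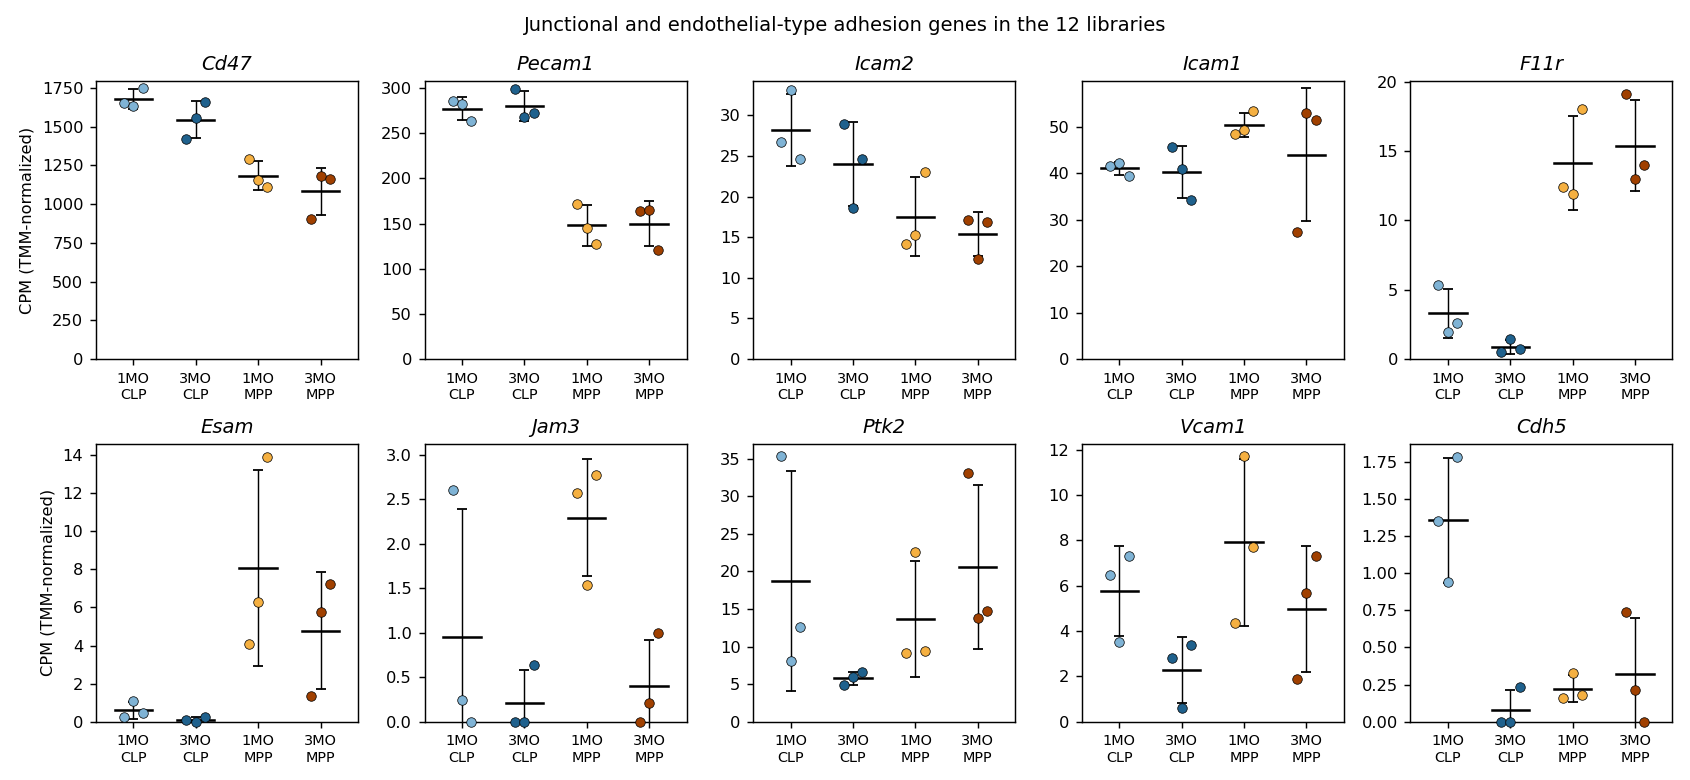
CPM of each gene in the 12 libraries, on linear axes from 0; each point is a library, horizontal lines are group means and error bars are 1 SD (n = 3). Pecam1 and Cd47 form a higher CLP and a lower MPP level, F11r and Esam the reverse, and Cdh5 exceeds 0.9 CPM only in the 1MO CLPs.

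The second question was whether the genes change between 1MO and 3MO. In Ly6d- CLPs, none of the 10 genes passed the adjusted threshold in edgeR, beside 0.0748% of all tested genes (10 of 13367), or in DESeq2, beside 0.446% of 14584. Before adjustment F11r, Esam and Ptk2 had a p under 0.05, 3 genes beside 5.9% of all genes, and all 3 had lower values at 3MO. Every 3MO CLP library lay below every 1MO CLP library for 4 genes, the same 3 and Vcam1, beside 6.13% of all genes. Cdh5 did so too, with an unadjusted p under 0.05, but is left out of both counts because only the 1MO CLPs let it pass the filter. The median log2 fold change of 3MO over 1MO in CLPs was -1.52 over the 10 genes, -1.35 over the 9 without Cdh5 and -0.01 over all tested genes.

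F11r, whose CLP values are given above, had a log2 fold change of -1.83 with age in CLPs (95% interval -2.92 to -0.74, adjusted p = 0.51 from edgeR). Over the fits that left out 1 CLP library it ran from -2.39 without 3MO CLP replicate 2 to -1.32 without 1MO CLP replicate 1, which had the highest CLP value of F11r.

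Ptk2 had 35.4, 8.10 and 12.6 CPM in 1MO CLPs and 4.84, 5.92 and 6.56 in 3MO CLPs. The 3MO libraries were close together and all below the 1MO libraries, of which replicate 1 was far above the other two. The log2 fold change of Ptk2 in CLPs was -1.68 (95% interval -2.84 to -0.53, adjusted p = 0.65 from edgeR), and -0.84 without 1MO CLP replicate 1. That library also held the most Col1a1, 400.0 CPM against 133.5 and 136.2 in the other 1MO CLP libraries. In 3MO CLPs Col1a1 was at most 1.92 CPM. The next highest Ptk2 value of all libraries, 33.1 CPM in 3MO MPP replicate 1, came with 0.0 CPM of Col1a1. The part of such RNA in the Ptk2 values was not tested.

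Cdh5, the endothelial cadherin (ENSMUSG00000031871, chromosome 8, 104101625 to 104144511, plus strand), had 15, 19 and 28 counts in the 1MO CLPs (1.35, 0.939 and 1.78 CPM). In the 3MO CLPs Cdh5 had 0, 0 and 3 counts, so the groups did not overlap. The counts in MPPs were 2, 3 and 3 at 1MO and 7, 3 and 0 at 3MO. Summed over libraries, 62 counts at 1MO and 3 at 3MO in CLPs are a 17.8-fold lower level per depth, with a 95% interval of 5.82 to 88.8 for counting error only. The fitted log2 fold change was -3.97 (SE 1.77, adjusted p = 0.84 from edgeR) and ran down to -7.22 without 3MO CLP replicate 3, the only 3MO CLP library with a count.

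Vcam1 had 6.48, 3.51 and 7.30 CPM in 1MO CLPs and 2.83, 0.608 and 3.40 in 3MO CLPs. The lowest 1MO and the highest 3MO library nearly touched. Its log2 fold change was -1.35 (95% interval -2.84 to 0.15, adjusted p = 0.89 from edgeR), and -0.88 without 3MO CLP replicate 2. Esam, with 32 counts in the 1MO and 4 in the 3MO CLPs, was 6.9-fold lower per depth (95% interval 2.45 to 26.9 for counting error only), at a fitted log2 fold change of -2.44 (SE 1.09, adjusted p = 0.84 from edgeR). That value was -1.69 without 1MO CLP replicate 2, which held 22 of the 32 counts, and -3.70 without 3MO CLP replicate 3. The lowest 1MO and the highest 3MO library of Esam held 3 counts each (0.27 and 0.237 CPM). Their separation therefore rests on the scaling for depth.

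The 4 most abundant members had the smallest age differences in CLPs. The log2 fold change was 0.01 for Pecam1 (95% interval -0.33 to 0.36), -0.12 for Cd47 (-0.42 to 0.18), -0.03 for Icam1 (-0.54 to 0.48) and -0.24 for Icam2 (-0.84 to 0.37). Changes of any size within these intervals are compatible with the data of 3 libraries a group.

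In Flk2+ MPPs none of the 10 genes passed the adjusted threshold between 1MO and 3MO in edgeR, beside 0.0224% of all tested genes (3 of 13367), or in DESeq2, beside 0.258% of 13557. None had an unadjusted p under 0.05, beside 3.48% of all genes. The median log2 fold change was -0.16 over the 10 genes, -0.13 over the 9 without Jam3 and -0.01 over all tested genes. Jam3, the junctional adhesion molecule JAM-C (ENSMUSG00000031990, chromosome 9, 27097384 to 27155421, minus strand), was the 1 gene whose 3MO MPP libraries all lay below the 1MO libraries. Such a separation was found in 4.61% of all genes, but Jam3 passed the filter through the 1MO MPPs, so nothing is read from it. It had 2.57, 1.54 and 2.77 CPM in 1MO MPPs and 0, 0.216 and 0.992 in 3MO MPPs, 92 counts in all against 17. The log2 fold change of Jam3 in MPPs was -2.46 (95% interval -6.32 to 1.4, adjusted p = 1 from edgeR), and -4.21 without 3MO MPP replicate 3, which held 14 of the 17 counts at 3MO.

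In CLPs Jam3 had 2.61, 0.247 and 0 CPM at 1MO and 0, 0 and 0.633 at 3MO, so that 1MO CLP replicate 1 held most of its counts. The log2 fold change of -2.11 in CLPs turned to 0.68 without that library. An antisense gene, Gm48796, shares 36.2% of the exon bases of Jam3 and had up to 181 counts in a library. The library kit is described as directional, but the strand setting of the counting is not given in the sources used here, so the part of Gm48796 reads in the Jam3 counts was not tested. Icam1 shares 11.7% of its exon bases with antisense Gm47079, which had at most 19 counts.

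The other members were as follows in MPPs. F11r had a log2 fold change of 0.12 with age (95% interval -0.86 to 1.11), Esam -0.75 (-2.60 to 1.10) and Vcam1 -0.67 (-2.12 to 0.79). Esam was at -0.11 without 1MO MPP replicate 3 and -0.32 without 3MO MPP replicate 1, and Vcam1 at -0.28 without 1MO MPP replicate 2 and -0.29 without 3MO MPP replicate 1. Vcam1 had 4.34, 11.7 and 7.71 CPM in 1MO MPPs and 1.90, 5.68 and 7.30 at 3MO, with overlap. Ptk2 had 9.08, 22.6 and 9.40 CPM in 1MO MPPs and 33.1, 13.8 and 14.7 at 3MO, a log2 fold change of 0.59 (95% interval -0.53 to 1.71). Over the fits that left out 1 library, this value of Ptk2 ran from 0.07 to 1.15. Pecam1, Cd47, Icam1 and Icam2 had log2 fold changes from -0.20 to 0.02 in MPPs.

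**Figure D4:**
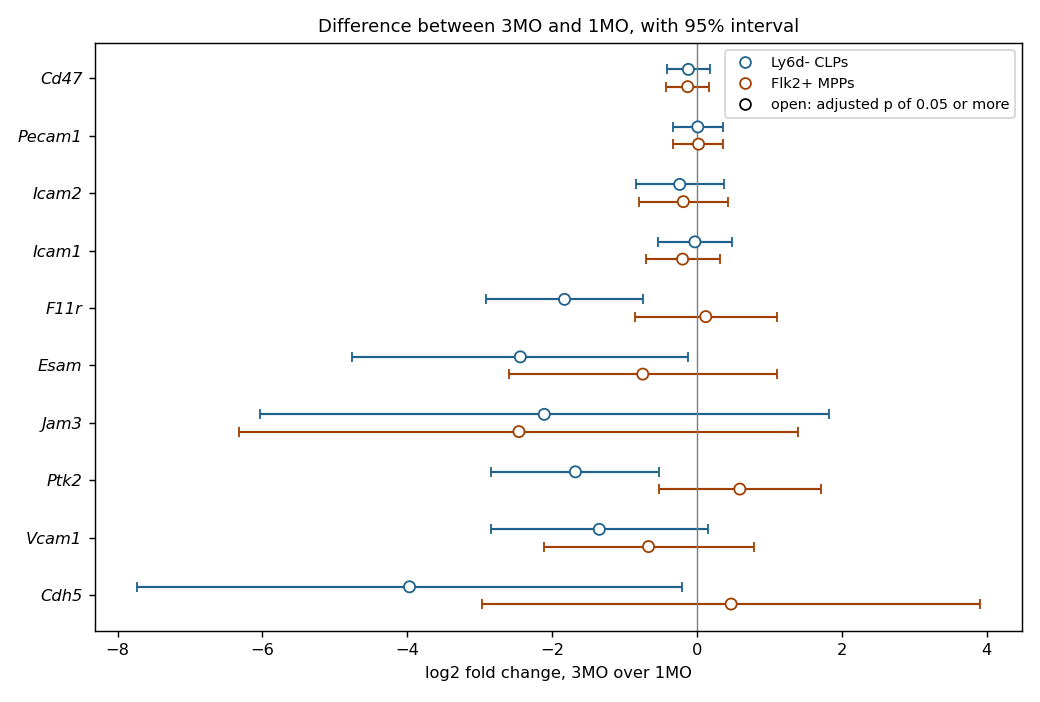
Log2 fold change of 3MO over 1MO in Ly6d- CLPs and Flk2+ MPPs with 95% intervals from edgeR; all symbols are open because no gene passed an adjusted p of 0.05. In CLPs the estimates of F11r (-1.83), Esam (-2.44), Jam3 (-2.11), Ptk2 (-1.68), Vcam1 (-1.35) and Cdh5 (-3.97) lie left of 0, and those of Cd47, Pecam1, Icam1 and Icam2 lie near 0 in both cell types.

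The difference between the 2 age effects was tested as an interaction. No gene of the 10 and none of all 13367 genes passed the adjusted threshold in edgeR (0.0%), and DESeq2 called none of the 10 beside 0.0396% of 17675 genes. Before adjustment 2 members had a p under 0.05, beside 3.21% of all genes (429). They were F11r, whose log2 fold change with age was lower in CLPs than in MPPs by a difference of -1.95 (SE 0.69, adjusted p = 1 from edgeR), and Ptk2, with a difference of -2.27 (SE 0.76, adjusted p = 1 from edgeR). Without 1MO CLP replicate 1 the difference was -1.44 for F11r and -1.43 for Ptk2, and without replicate 1 of all groups it was -0.90 and -0.57. For Cdh5 the difference was -4.44 with a 95% interval of -9.49 to 0.61. The median of the 10 differences was -0.36, and that of all tested genes was -0.01. Cdh5, Jam3 and Esam each passed the filter through 1 group or cell type. Without Cdh5, and also without all of these, the median of the rest was the value of Icam2, -0.05.

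Because Cdh5, Pecam1, Esam and Icam2 are widely used as markers of the vessel wall, lists of markers of other cells were set beside them. The lineage depletion used antibodies against blood cells of mature lineages. The 14 endothelial markers, none of them a member, summed to 131.3 to 156.6 CPM in 1MO CLPs, 104.1 to 138.6 in 3MO CLPs, 202.6 to 288.4 in 1MO MPPs and 153.3 to 204.5 in 3MO MPPs. The lowest MPP library, at 153.3 CPM, overlapped the CLP libraries. 12 of the 14 markers had a count in 1MO CLPs, 9 in 3MO CLPs, 11 in 1MO MPPs and 10 in 3MO MPPs. Sox17 was at 0 in every library, Cldn5 at 0 in all CLP libraries, Mmrn2 had at most 0.72 CPM and Ptprb at most 0.899, both only in 1MO CLPs, and Kdr stayed at or below 1.90 CPM. Egfl7, at 55.5 to 146.2 CPM, made up much of the sum. Robo4 had mean values of 21.5 CPM in 1MO CLPs, 7.32 in 3MO CLPs, 53.7 in 1MO MPPs and 37.8 in 3MO MPPs, Tie1 of 4.08, 7.58, 33.4 and 43.3, and Emcn of 5.94, 4.74, 22.4 and 17.1 in the same order. The sum of 11 bone stroma markers was 310.9 to 703.3 CPM in 1MO CLPs, 68.6 to 173.1 in 1MO MPPs and 62.2 to 115.0 in 3MO MPPs. All 11 had a count in 1MO CLPs and 8 in 3MO CLPs. Col1a1 had mean values of 27.3 CPM in 1MO MPPs and 1.94 in 3MO MPPs. The sum of 12 macrophage markers, a cell type known to express Vcam1 in BM, was 128.9 to 157.6 CPM in 1MO CLPs and 81.6 to 152.1 in 3MO CLPs. In MPPs the macrophage sum was 54.7 to 78.6 CPM at 1MO and 44.3 to 65.3 at 3MO. In 1MO CLPs C1qa, C1qb, Adgre1, Spic and Vsig4 had mean values of 2.13, 0.913, 3.24, 0.355 and 0.0 CPM. Most of the sum in 1MO CLPs therefore came from other genes of the list. Cdh5, Vcam1, F11r, Esam and Ptk2 had lower values at 3MO than at 1MO in CLPs, as did the bone stroma sum. Within the 1MO CLPs the stroma sum, F11r and Ptk2 were highest in replicate 1. Cdh5 and Vcam1 were highest in replicate 3, and Esam was highest in replicate 2 and lowest in replicate 1. Sums of B lineage markers (90.3 to 124.2 CPM at 1MO and 42.8 to 67.3 at 3MO) and of dendritic cell markers (153.4 to 165.6 and 113.2 to 126.0) were also lower at 3MO in CLPs without overlap, and the part of other cells in these differences was not tested. Markers of megakaryocytes and platelets, which carry Pecam1, F11r and Esam, summed to 9.45 to 29.3 CPM in CLPs and 17.2 to 38 in MPPs.

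**Figure D5:**
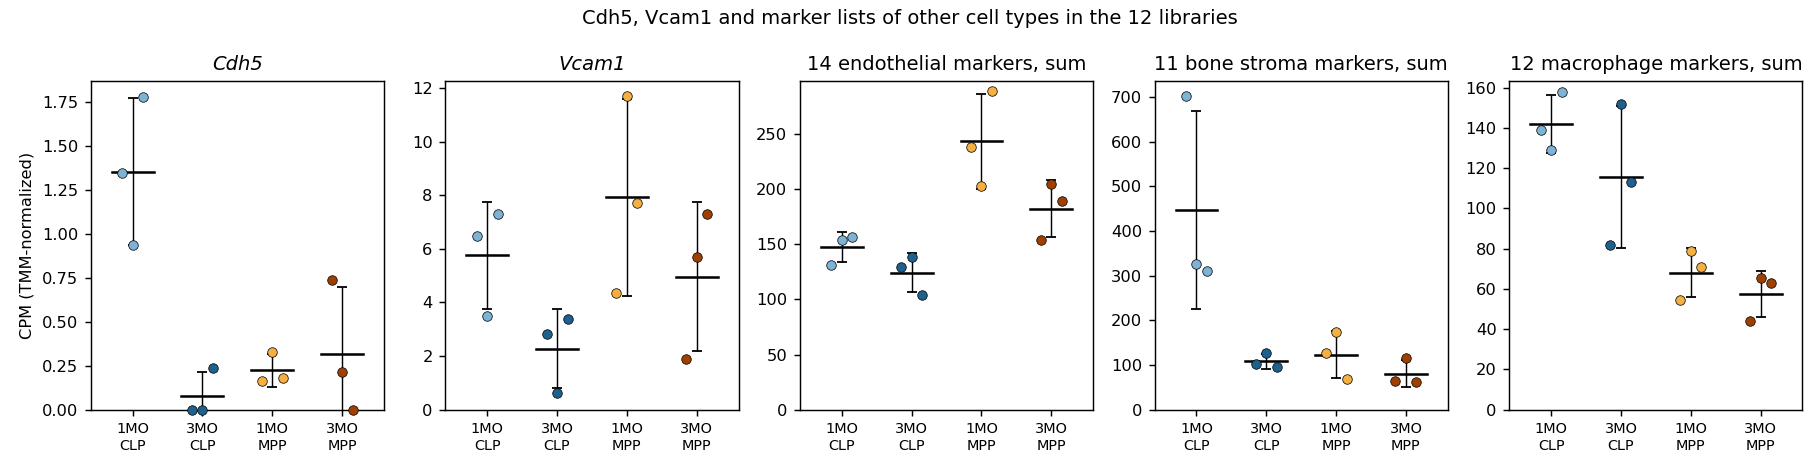
Cdh5, Vcam1 and the summed CPM of endothelial, bone stroma and macrophage marker lists in each library (points), with group means and SD (n = 3), on linear axes from 0. Cdh5 and the bone stroma sum are highest in the 1MO CLPs, stroma in replicate 1 (703.3 CPM) and Cdh5 in replicate 3 (1.78 CPM). The endothelial sum is highest in the 1MO MPPs, up to 288.4 CPM.

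The other genes of the same pathways were taken from lists. None of them was called by edgeR with age in either cell type or in the interaction, where 0 to 2 genes a list had an unadjusted p under 0.05, beside 5.9% of all genes in CLPs, 3.48% in MPPs and 3.21% in the interaction. Of 17 further tight junction genes, 11 were tested, and 3 were called lower in CLPs than in MPPs at 1MO and 2 at 3MO, with none higher, beside 2.81% and 3.34% of all tested genes called lower. Cldn12, a claudin, had log2 fold changes of -2.61 and -1.60 (adjusted p = 0.0015 and 0.034 from edgeR). At 1MO Afdn, the scaffold that binds JAM and nectin tails, was at -2.75 (adjusted p = 0.0012 from edgeR) and Marveld1 at -1.36 (0.0086). At 3MO Tjp3, a zonula occludens scaffold, was at -1.19 (adjusted p = 0.023 from edgeR). Of 11 further adherens junction genes, 9 were tested and none was called between cell types in edgeR. Before adjustment, 1 had a p under 0.05 at 1MO and 2 at 3MO, where 15.8% and 19.0% of all tested genes did.

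Of 13 further immunoglobulin and selectin-type genes, 8 were tested. Selplg, the P-selectin ligand, was called higher in CLPs at both ages, with log2 fold changes of 0.93 and 1.2 (adjusted p = 0.0076 and 0.0012 from edgeR). Cd34 was lower at both ages, at -0.68 and -0.68 (adjusted p = 0.029 and 0.026 from edgeR), and Alcam (-1.20) and Cd99l2 (-1.43) were called lower at 3MO. Of all tested genes, 2.57% were called higher at 1MO and 2.73% at 3MO, and 2.81% and 3.34% were called lower. Of the 10 integrin subunits that bind the ligands named here, 2 were called higher in CLPs at both ages and none lower, beside 2.57% and 2.73% of all tested genes called higher. They were Itga4, which pairs to form the Vcam1 receptor, with log2 fold changes of 1.23 and 1.2 (adjusted p = 0.00028 and 0.00042 from edgeR), and Itgax, with 2.37 and 2.15 (0.00037 and 0.00095). None of the 3 tested Cd47 partners was called between cell types in edgeR, and 0 at 1MO and 1 at 3MO had an unadjusted p under 0.05, beside the same 15.8% and 19.0% of all genes. Of 22 tested genes of focal adhesion kinase signaling only Ptk2b, the paralog of Ptk2, was called between cell types: it was lower in 3MO CLPs than in 3MO MPPs (log2 fold change -0.56, adjusted p = 0.028 from edgeR), 1 gene where 3.34% of all tested genes were called lower.

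Among the members, log2 CPM over the 12 libraries varied most alike for F11r and Esam and for Pecam1 and Cd47, with Pearson r of 0.84 in both pairs. Esam and Pecam1 ran opposite (r = -0.91), as did F11r and Pecam1 (r = -0.87). The 12 libraries fall into 2 cell types and share them in every pair, so these values describe the division between CLPs and MPPs. Among all tested genes, the 3 with the pattern most like F11r were Osgin1 (r = 0.976), Cyp2j9 (0.963) and Adgrd1 (0.962). Those most like Esam were Basp1 (r = 0.984), Ifitm3 (0.972) and Anxa1 (0.965), and those most like Pecam1 were Drc7 (0.99), Atf6 (0.981) and Itga4 (0.98). Kcng1 (0.981), Parp1 (0.974) and Colq (0.97) were most like Cd47. For the genes with less difference between cell types the highest r was 0.951 for Icam1 with Plscr1, 0.944 for Ptk2 with Mccc1, 0.942 for Jam3 with Tmprss4, 0.933 for Icam2 with Lifr, 0.919 for Vcam1 with Frat1 and 0.867 for Cdh5 with Map2k1.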

How the data were processed

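RNA of Ly6d- CLPs and Flk2+ MPPs was measured in 12 libraries. The authors made the deposited table of estimated counts (expected counts per gene, scaled for transcript length and not for depth) with an nf-core pipeline that ran FastQC, UMI-tools, Trim Galore, SortMeRNA, STAR and Salmon. The submitters' processing notes name the build mm10, and the strand setting is not given in the sources used here. Library preparation selected polyadenylated RNA. All columns matched a sample by name (0 unmatched).

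The estimated counts were rounded to whole numbers and tested in R 4.3.3 with edgeR 4.0.16 (filterByExpr, TMM, quasi-likelihood, 1 fit of 4 groups, Benjamini-Hochberg over 13367 genes, threshold 0.05) after a test on simulated data. DESeq2 1.42.0, other filters, only the libraries compared, a replicate block and leaving out libraries were the alternatives. Log2 CPM used a prior count of 2. Tables and figures were made in Python 3.11.15 with pandas 2.3.3, numpy 2.4.6, scipy 1.17.1 and matplotlib 3.10.9. Positions and exon lengths are from GENCODE M21 on GRCm38, and promoters from RefSeq on GRCm38.p6, which matched 3 of the 10 members. Depth was 8889083 to 20677785 counts per library, and intervals on counts (95%, exact) cover counting error only.

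The members and lists were chosen with earlier results of these data known. Named are all members, at most the 3 called genes with the smallest p per list and comparison, the 3 genes most correlated with a member, and markers a result turns on. 1 gene that this rule would name is not reported here. Cd99l2, Robo4, Tie1, Emcn, Tek, Egfl7, Kdr, Flt1, Plvap and Stab2 were named after their values were seen. Replicate numbers come from the sample titles. Replicates differed by more than sampling noise in all groups (chi-square per degree of freedom 17.6 to 86.3), and they are independent experiments by the study's account.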

Additional observations from a re-analysis of the deposited data

How the results depend on the processing

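With age, 0 of the 10 genes were called under any of 6 alternatives per comparison, and in the interaction 0 under any of 5. Nor was any called in 15 fits that left out 1 library or 1 replicate number. Some settings left members out: with age in CLPs, Esam and Jam3 had values in 4 of the 6 alternatives. A gene left out cannot be called. Between cell types 4 genes were called at each age, and 2 at each age under a filter of 10 counts or more in each library, which leaves 6 of the 10 and drops F11r and Esam by construction. With only the libraries compared, 2 were called at 3MO (Esam adjusted p = 0.07, Cd47 0.13, from edgeR). The fits that left out libraries called 0 to 4 at 1MO and 1 to 5 at 3MO. Cd47 lost its calls without a filter (adjusted p = 0.066 and 0.071 from edgeR), and Ptk2 gained one at 3MO (0.007). The cause of these moves was not tested.

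Same-numbered libraries deviated from their group means with correlations of -0.034 to 0.213, over 0.1 in 5 of 18 pairs, and 8 of 12 libraries correlated best with 1 of their own number. Not every pair passed 0.1. The labels number the libraries of a replicate together and the study names 3 independent experiments, but whether equal numbers mark 1 animal or day is not stated in so many words. Erythroid marker sums were 104.9 to 170.1 CPM in replicate 3 of all 4 groups and 20.0 to 37.9 in replicates 1 and 2, which the groups share by number. With a replicate block, 4 and 4 genes were called between cell types and 0 with age, and the interaction of Jam3 was -0.06 against 0.35.

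Among all tested genes, calls with age in CLPs were 10, against 46 with no filter, 65 in DESeq2, 4 with at least 10 counts everywhere and 4 with only the libraries compared. In MPPs they were 3, against 26, 35 and 1 under the first 3 of these settings. The interaction gave 0, against 6 with no filter and 7 in DESeq2. Between cell types there were 719 at 1MO and 812 at 3MO, against 1230 and 1427 in DESeq2, and 435 at 3MO with only the libraries compared.

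With no filter, Pecam1 in CLPs with age was -0.01 and the interaction of Cd47 -0.02. Leaving out libraries turned the sign of the following uncalled log2 fold changes. With age in CLPs the ranges were -7.22 to 1.21 for Jam3, -0.04 to 0.06 for Pecam1, -0.13 to 0.07 for Icam1 and -0.42 to 0.06 for Icam2. With age in MPPs they were -0.14 to 0.40 for F11r, -1.15 to 1.07 for Cdh5, -0.15 to 1.37 for Ptk2, -0.08 to 0.15 for Pecam1, -0.23 to 0.05 for Cd47, -0.37 to 0.05 for Icam1 and -0.39 to 0.07 for Icam2. In the interaction they were -3.27 to 0.03 for Esam, -4.24 to 3.14 for Jam3, -0.13 to 0.35 for Icam1, -0.34 to 0.19 for Icam2 and -0.12 to 0.08 for Cd47. Between cell types they were -0.62 to 1.37 for Ptk2 and -0.84 to 0.19 for Vcam1 at 1MO, and -5.64 to 0.04 for Cdh5, -5.53 to 0.82 for Jam3 and -0.47 to 0.11 for Icam1 at 3MO. Depth limits Cdh5, Jam3 and Esam, which have under 10 counts in 9, 7 and 5 libraries.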

Other observations

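Of 14 endothelial markers, 9 were tested, and 3 were called lower in CLPs than in MPPs at each age and none higher, beside 2.81% of all tested genes called lower at 1MO and 3.34% at 3MO. The 3 were Tie1, Emcn and Robo4, named after their values were seen. The others were not called, and some had values in the opposite direction, with log2 fold changes at 1MO of 1.4 for Kdr, 1.02 for Flt1 and 1.07 for Plvap, and at 3MO of 0.91 for Plvap, 5.84 for Stab2 and 0.28 for Egfl7. Tie1, an orphan receptor of the angiopoietin system, had 1.84 to 6.17 CPM in 1MO CLPs, 6.09 to 8.58 in 3MO CLPs, 25.1 to 40.9 in 1MO MPPs and 37.5 to 50.4 in 3MO MPPs. Its log2 fold change in CLPs over MPPs was -3.02 at 1MO and -2.51 at 3MO (adjusted p = 0.00016 and 0.00067 from edgeR). Emcn, an endothelial sialomucin also found on stem cells, was at -1.91 and -1.86 (adjusted p = 0.018 and 0.021 from edgeR). Tek, the angiopoietin receptor, was at -2.41 and -3.02 and did not pass the threshold (adjusted p = 0.14 and 0.058 from edgeR).

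Robo4, an endothelial guidance receptor that also serves in stem cell homing, had 30.8, 18.3 and 15.5 CPM in 1MO CLPs and 6.66, 5.97 and 9.33 in 3MO CLPs, without overlap. Its log2 fold change with age in CLPs was -1.55 (SE 0.31, adjusted p = 0.12 from edgeR), so it fails the correction over all genes. In MPPs Robo4 had 56.0, 45.8 and 59.4 CPM at 1MO and 27.9, 41.7 and 43.7 at 3MO, a log2 fold change of -0.51 (adjusted p = 1 from edgeR). In CLPs over MPPs it was at -1.32 at 1MO and -2.37 at 3MO (adjusted p = 0.014 and 0.00024 from edgeR). Tie1 had a log2 fold change of 0.88 with age in CLPs (adjusted p = 0.81 from edgeR), opposite in sign to Robo4.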
